A study of Mus musculus with 46 samples.

Results

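The genes described here are 37 genes of double-strand break repair and of repair at replication forks, chosen by symbol from the 19521 genes of the deposited RNA table. They comprise 4 checkpoint kinases, 6 genes of signalling on chromatin around a break, 7 genes of end sensing, resection and unwinding, 12 genes of the BRCA complexes and of strand exchange, 5 Fanconi anaemia genes, the polymerase theta gene Polq, and 2 mismatch repair genes. All 37 were found in the table, and all 37 passed the filter on low counts in each of the 14 comparisons.

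The study set T cells of mice that carry LMO2 under elements of the human CD2 gene (genotype labelled hCD2-LMO2 knock-in, TG) against T cells of wild-type mice (WT), all of strain C57BL/6, with no drug or other agent named and no age given in the labels. Human CD2 elements drive expression in T-lineage cells, and LMO2 links transcription factors in complexes of blood stem cells and can drive T-cell leukaemia as an oncogene. RNA of sorted thymocytes was sequenced in 3 TG and 3 WT libraries each of DN3 cells, of total CD4 and CD8 double-negative cells (DN, a mixture of early stages), of double-positive cells (DP), and of single-positive cells with CD4 (CD4SP) or CD8 (CD8SP). DN1 cells, the earliest double-negative subset, had 3 TG libraries and 1 WT library, and spleens of TG mice gave 3 libraries of CD4 and 3 of CD8 T cells, with no WT spleen. The labels do not say that replicates came from separate mice, so p-values measure the spread between these libraries, which may be technical. Within some groups a pair of libraries was far more alike than the others, by mean chi-square over genes, where 1 is sampling noise. WT CD4SP replicates 1 and 2 were at 6.62, against 70.2 and 56.2 with replicate 3. Replicates 2 and 3 were at 8.10 in WT DP cells (others 118 and 120) and 9.56 in TG splenic CD8 cells (others 283 and 363). The tests took all libraries of a group as independent. In bulk RNA, fewer cells of a type and less RNA per cell cannot be told apart.

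A double-strand break is sensed by the kinases ATM and ATR, which phosphorylate the histone variant H2AX in the surrounding chromatin and stop the cell cycle through CHK1 and CHK2. In S and G2 phase, breaks are trimmed to single strands and mended by homologous recombination, in which BRCA1 and BRCA2 take part, while the Fanconi anaemia proteins act on crosslinks and stalled forks. Thymocytes cut their own DNA during rearrangement of the T-cell receptor genes, whose breaks are joined by non-homologous end joining, and they divide rapidly after the first rearrangement, so that both kinds of repair are in use in this organ.

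Library totals were between 17211426 and 28842773 counts in the 40 libraries. Levels of one gene are given as CPM, counts scaled to a common library size after TMM (a trimmed mean of the ratios between libraries). Lmo2 was at 19.2 to 87.1 CPM in the TG thymic and splenic libraries outside total DN cells, except for the library labelled TG DP replicate 3 with 0.4 CPM. It was at 16.5 to 28.0 CPM in TG DN cells, against 3.66 to 4.42 CPM in WT DN cells. Other WT libraries held 0.12 to 2.26 CPM, apart from 30.7 CPM in the DN1 library, beside 35.1 to 44.2 CPM in TG DN1 cells. The sources used here do not say whether the LMO2 of TG mice is the human or the mouse sequence.

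Several libraries did not match their sort. The library labelled TG CD4SP replicate 2 held 2151 CPM of Cd4, 3070 CPM of Cd8a and 6438 CPM of Rag1, a recombinase gene of DN3 and DP cells, and the library labelled TG CD4SP replicate 3 held 1300 CPM of Cd4, 825 CPM of Cd8a and 2274 CPM of Rag1. The library labelled TG CD4SP replicate 1 held 191 CPM of Cd4, 92.4 CPM of Cd8a and 349 CPM of Il2ra, a marker of DN3 cells. In WT CD4SP cells the range was 1386 to 1869 CPM for Cd4, 43.5 to 146 CPM for Cd8a and 48.7 to 292 CPM for Rag1. The library labelled TG CD8SP replicate 3 held 1412 CPM of Cd4 and 6099 CPM of Rag1, and the library labelled WT CD8SP replicate 3 held 843 CPM of Cd4 and 2983 CPM of Rag1. Among splenic libraries, the one labelled TG splenic CD8 replicate 1 had 3347 CPM in 5 summed B-cell genes, and the one labelled TG splenic CD4 replicate 3 had 58629 CPM in 6 summed erythroid genes.

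Across the 14 groups of genotype and cell type, many repair genes had their lowest level in the spleen. The mean CPM of 25 of the 37 genes was lowest in one of the splenic groups, and that of 13 was highest in TG CD8SP cells. Such shares were not computed over all genes. The ratio of the highest to the lowest group mean was 5 or more for 17 genes and under 2 for 5 genes, Rad51d, Pms2, Mdc1, Rad52 and Rnf8. Chek1, which encodes the effector kinase CHK1 that restrains cells with stalled forks, had the widest range of the 37 at 22.1-fold, with a mean of 3.44 CPM in TG splenic CD4 cells and 76.0 CPM in TG CD8SP cells. Rad51d, a recombination gene, had the narrowest at 1.42-fold. Levels of different genes can be set beside each other only per transcript length, for which the authors' FPKM values were used. In WT DN3 cells the mean FPKM of the 37 genes was between 3.59 for Rad51b and 175 for H2afx, with a median of 10.7 FPKM, and 22 genes were at 10 FPKM or more.

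**Figure D1:**
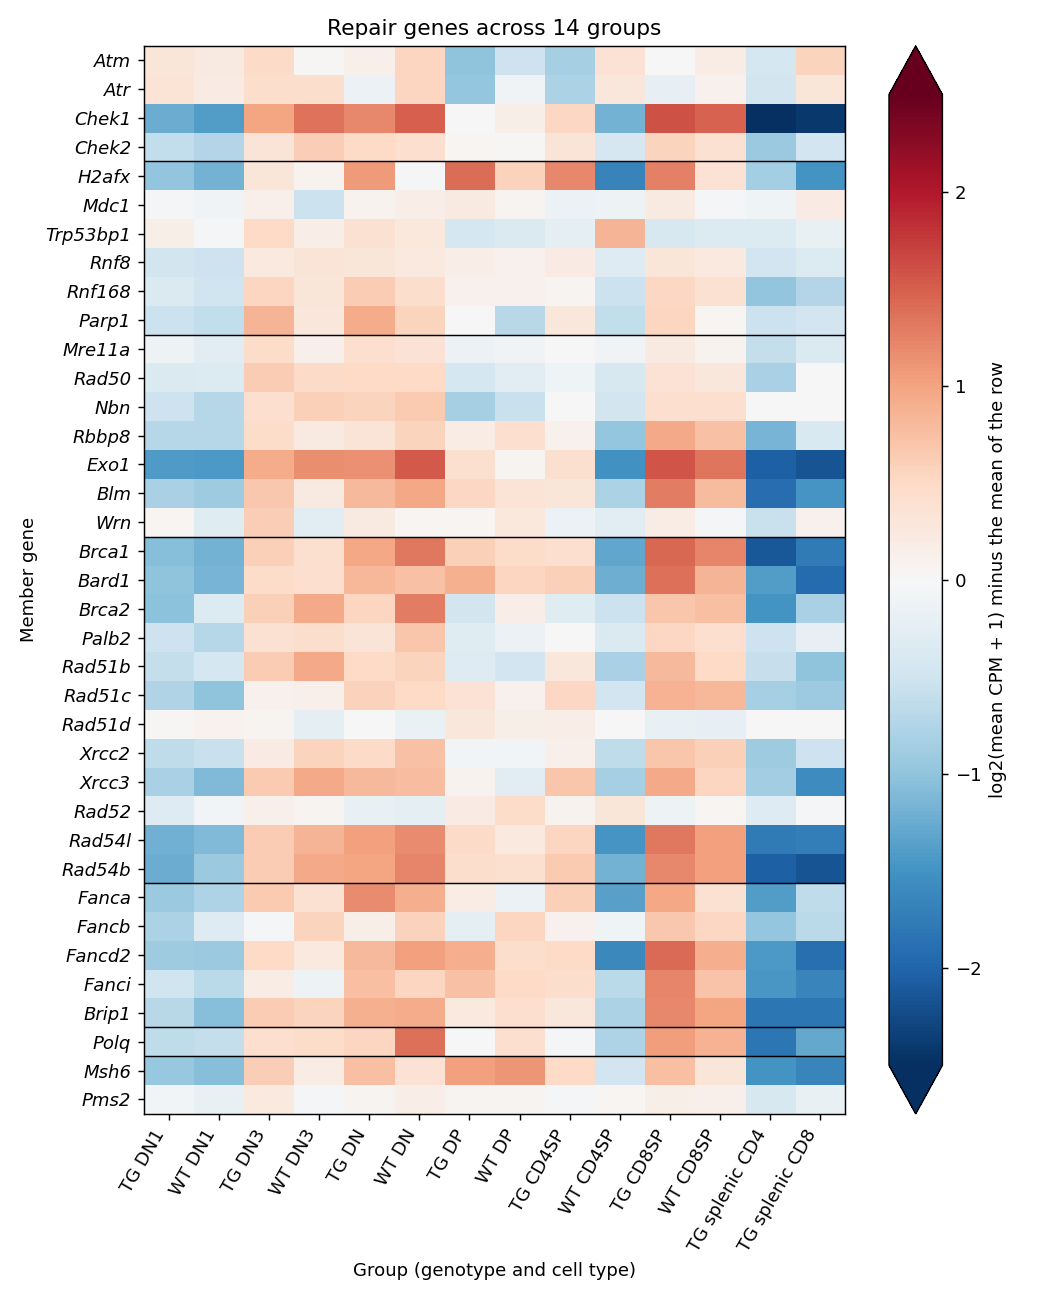
Mean level of each of the 37 repair genes (rows, in blocks by role from checkpoint kinases at the top to mismatch repair at the bottom) in the 14 groups (columns), as log2(mean CPM + 1) minus the mean of the row. One of the splenic columns at the right is the lowest for 25 of the 37 genes, and rows such as Rad51d and Rad52 are pale throughout.

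Most of these genes moved with genes of cell division. Pearson's r between a gene's log2(mean CPM + 1) and the mean of the same measure over 26 cell division genes, across the 14 groups, was 0.8 or more for 22 of the 37 genes, between 0 and 0.8 for 11, and below 0 for 4. It was 0.99 for Bard1, the partner of BRCA1 in a ubiquitin ligase, 0.98 for Fancd2 and 0.98 for Fanci, the pair of Fanconi proteins that clamps onto DNA. It was -0.39 for Atm, -0.33 for Atr, -0.27 for Trp53bp1 and -0.10 for Rad51d. These are descriptions over 14 groups, in which each point is a mean over libraries, with no test. The summed level of the 37 genes averaged 1062 ± 138 CPM in TG splenic CD4 cells and 1268 ± 48.9 CPM in TG splenic CD8 cells (SD, n = 3 each). Some thymic groups lay close to these, with 1344 ± 123 CPM in TG DN1 cells (SD, n = 3), 1259 CPM in the WT DN1 library and 1385 ± 24.1 CPM in WT CD4SP cells (SD, n = 3). The highest were TG CD8SP cells with 2946 ± 515 CPM and TG DN cells with 2883 ± 131 CPM (SD, n = 3 each), which overlapped.

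**Figure D2:**
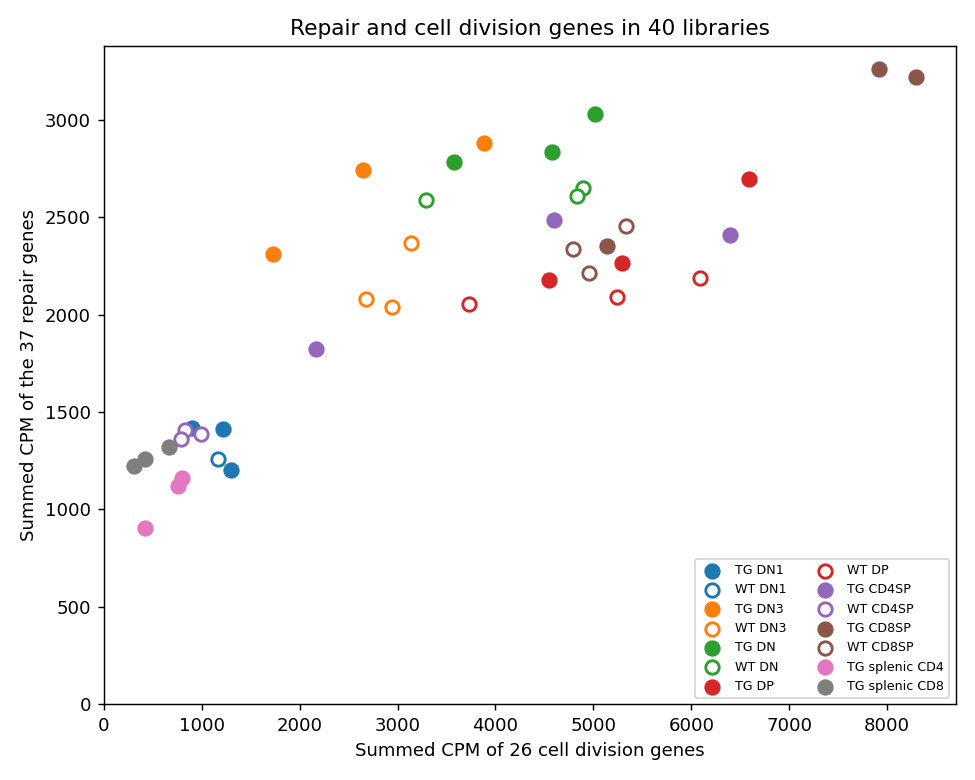
Summed CPM of the 37 repair genes (vertical axis) against summed CPM of 26 cell division genes (horizontal axis), 1 point per library for 40 libraries, filled for TG and open for WT, coloured by cell type. Splenic libraries lie at the lower left and TG CD8SP libraries at the upper right, and the 3 TG CD4SP libraries, at 2165 to 6391 CPM of division genes, lie to the right of the 3 WT CD4SP libraries, at 791 to 996 CPM.

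Promoters of the repair genes were read from RefSeq (build GRCm38.p6), as the 300 bases that begin 250 bases before each annotated start. Of the 37 genes, 27 were in the promoter table, with 30 promoters. The motif of the E2F factors, which switch on S-phase genes, was searched as TTCCCGC and TTGGCGC on both strands and occurred in 16 of the 30 promoters (53.3%), against 2236 of all 32851 promoters of the table (6.81%). TTCCCGC alone was in 46.7% of the 30 and 4.6% of all, and TTGGCGC in 10% of the 30 and 2.45% of all. The CCAAT box, searched as CCAAT on both strands, was in 60% of the 30 and 37.4% of all, and overlapped an E2F motif in 0 of the 30 and in 147 of all. The CHR motif of late cell-cycle genes, TTTGAA, was in 13.3% of the 30 and 17.9% of all. These matches are letters in a window and not evidence of binding.

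Promoters of 5 genes are shown because they set genes that tracked division beside different promoter letters: Brca1, Chek1 and Fanci tracked division and hold an E2F motif, Rad52, with nearly even levels, holds one too, and Fanca tracked division with no match in this window. Each is given 5′ to 3′ on the strand of the gene, with the E2F motif in capitals. Brca1 lies at chr11:101551906-101552205 on the minus strand with the motif beginning at 21 bases after the start, Chek1 at chr9:36726609-36726908 on the minus strand with the motif at 43, and Fanci at chr7:79392088-79392387 on the plus strand with the motif at 18. Rad52 lies at chr6:119902448-119902747 on the plus strand with the motif at -132 from the start, and Fanca at chr8:123318527-123318826 on the minus strand.
Brca1: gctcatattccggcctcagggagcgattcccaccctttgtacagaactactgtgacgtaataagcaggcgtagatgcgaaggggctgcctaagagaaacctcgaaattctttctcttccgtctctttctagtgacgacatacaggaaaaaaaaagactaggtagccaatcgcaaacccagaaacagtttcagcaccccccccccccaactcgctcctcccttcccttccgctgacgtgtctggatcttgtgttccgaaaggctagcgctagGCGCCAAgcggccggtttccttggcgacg
Chek1: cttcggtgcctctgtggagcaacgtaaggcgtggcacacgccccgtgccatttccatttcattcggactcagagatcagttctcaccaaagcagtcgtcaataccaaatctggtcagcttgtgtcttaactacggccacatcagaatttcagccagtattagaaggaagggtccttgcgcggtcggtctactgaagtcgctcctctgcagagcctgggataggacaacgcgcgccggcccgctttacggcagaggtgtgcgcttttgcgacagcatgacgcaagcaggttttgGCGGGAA
Fanci: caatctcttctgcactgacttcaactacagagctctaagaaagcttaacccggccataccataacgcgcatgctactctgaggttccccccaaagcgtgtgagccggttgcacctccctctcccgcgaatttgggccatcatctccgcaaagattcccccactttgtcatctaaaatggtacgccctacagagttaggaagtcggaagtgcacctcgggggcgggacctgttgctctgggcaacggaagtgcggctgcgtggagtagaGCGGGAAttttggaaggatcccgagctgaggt
Rad52: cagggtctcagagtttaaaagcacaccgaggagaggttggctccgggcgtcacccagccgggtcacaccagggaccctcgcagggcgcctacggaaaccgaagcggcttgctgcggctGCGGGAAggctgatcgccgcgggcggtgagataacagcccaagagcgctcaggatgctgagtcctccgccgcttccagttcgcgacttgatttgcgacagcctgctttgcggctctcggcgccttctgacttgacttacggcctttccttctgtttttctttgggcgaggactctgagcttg
Fanca: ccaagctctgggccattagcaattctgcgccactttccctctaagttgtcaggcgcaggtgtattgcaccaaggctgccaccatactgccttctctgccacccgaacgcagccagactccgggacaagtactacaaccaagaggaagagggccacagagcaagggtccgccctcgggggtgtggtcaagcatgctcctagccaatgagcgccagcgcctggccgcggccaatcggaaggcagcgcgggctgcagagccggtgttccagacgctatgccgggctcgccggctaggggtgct

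The motif counts can be set beside the genotype comparison in CD4SP cells, with no test. Of the 27 genes with a promoter in the table, 7 of the 13 that rose in TG CD4SP cells, 1 of the 3 that fell and 8 of the 11 with no call held an E2F motif in at least 1 promoter.

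In CD4SP cells, 18 of the 37 repair genes rose in TG and 3 fell, by the quasi-likelihood test of edgeR, with p adjusted over all genes by Benjamini-Hochberg and a threshold of 0.05. Of the 12073 genes tested in this comparison, 15% were called higher in TG and 11% lower. The median log2 fold change of the 37 genes was 0.87, against 0.05 over all genes tested. In 22 of the 37 genes all TG libraries lay above all WT libraries, and in 3 all lay below, where 24% of all genes tested lay above and 25.7% below.

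The increases came from every role except polymerase theta: 4 of 5 Fanconi anaemia genes, 6 of 12 genes of the BRCA complexes and strand exchange, 3 of 7 of resection, 3 of 6 of break-site chromatin, 1 of 4 checkpoint kinases and 1 of 2 mismatch repair genes rose. The decreases were in 2 kinases, Atm and Atr, and in Trp53bp1. They stood beside the division genes, of which 25 of 26 rose (median log2 fold change 2.41; Aurka, 2.91 ± 0.36, Tpx2, 3.02 ± 0.38, and Plk1, 3.02 ± 0.39, all encoding spindle factors), and the replication fork genes, of which 29 of 31 rose (Pole, 1.94 ± 0.18, Pold1, 1.83 ± 0.19, and Lig1, 2.41 ± 0.32). Summed CPM of the 26 division genes was 4593, 6391 and 2165 in the TG libraries, against 829, 791 and 996 in the WT libraries. Markers of other cells moved as well. Of 8 DP markers 4 rose (Arpp21, 4.09 ± 0.61, Dntt, 3.61 ± 0.54, and Cd8a, 4.09 ± 1.21, with the smallest adjusted p), and of 6 DN3 markers 3 rose (Notch3, 4.41 ± 0.55, Notch1, 1.29 ± 0.22, and Hes1, 5.52 ± 1.38). Of 4 tested B-cell markers 3 rose (Cd79b, 3.47 ± 0.43, Ms4a1, 4.31 ± 0.96, and Cd79a, 3.29 ± 0.89) and of 4 tested myeloid markers 2 rose (Lyz2, 2.63 ± 0.57, and Fcgr3, 3.33 ± 0.86), though the sums were low, at 19.5 to 54.9 CPM of B-cell genes in TG CD4SP libraries, against 2.3 to 4.6 CPM in WT, and 27.8 to 99.3 CPM of myeloid genes in TG, against 10.7 to 17.2 CPM in WT. Of 7 markers of mature T cells 2 fell, Cd69 (-2.70 ± 0.32) and Ccr7 (-3.11 ± 0.80). The part of cell division and of these other cells in the repair gene differences was not tested.

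H2afx, which encodes the histone variant H2AX (chr9:44334715-44336077, GRCm38.p6, where RefSeq names it H2ax), had 493, 528 and 276 CPM in TG CD4SP cells, against 50.7, 52.2 and 70.1 CPM in WT CD4SP cells. Its log2 fold change was 2.91 ± 0.30 (SE; edgeR's quasi-likelihood test, Benjamini-Hochberg adjusted p = 0.00565), or 7.52-fold. All 3 TG libraries lay above all 3 WT libraries, and the lowest of them was the library labelled replicate 3, whose division genes were also the lowest of the 3.

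Among the Fanconi genes, Fancd2 had 28.7, 37.8 and 13.7 CPM in TG CD4SP cells, against 4.62, 5.56 and 6.21 CPM in WT CD4SP cells (log2 fold change 2.29 ± 0.39, edgeR adjusted p = 0.0114). Its partner Fanci had 38.7, 45.3 and 24.2 CPM in TG, against 16.7, 14.7 and 17.2 CPM in WT (1.16 ± 0.25, edgeR adjusted p = 0.0210). Fanca, of the core complex that ubiquitinates this pair, had 55.5, 29.6 and 28.6 CPM in TG, against 9.82, 9.92 and 7.38 CPM in WT (2.07 ± 0.31, edgeR adjusted p = 0.00921). The groups did not overlap in any of the 3 genes. Brip1, a helicase that binds BRCA1, also rose, while Fancb, of the same core complex as Fanca, was not called (0.25 ± 0.34).

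Among the recombination genes, Brca1, the tumour suppressor that promotes recombination over end joining, had 52.4, 57.8 and 28.8 CPM in TG CD4SP cells, against 11.5, 12.9 and 16.1 CPM in WT CD4SP cells (log2 fold change 1.78 ± 0.29, edgeR adjusted p = 0.0108). Bard1 had 39.4, 50.3 and 18.5 CPM in TG, against 8.79, 8.79 and 11.2 CPM in WT (1.91 ± 0.37, edgeR adjusted p = 0.0154). Both genes of this ligase were higher in every TG library than in any WT library, and the lowest TG library of each was replicate 3. The motor protein gene Rad54l, whose product drives strand exchange, had 50.2, 41.0 and 22.7 CPM in TG, against 7.22, 6.54 and 12.4 CPM in WT (2.12 ± 0.38, edgeR adjusted p = 0.0127). Rad54b, its relative, had 28.3, 16.1 and 9.41 CPM in TG, against 4.05, 3.81 and 4.95 CPM in WT (2.07 ± 0.42, edgeR adjusted p = 0.0174). The recombination gene Xrcc3 had 20.4, 10.7 and 14.9 CPM in TG, against 6.00, 3.81 and 4.32 CPM in WT (1.71 ± 0.34, edgeR adjusted p = 0.0165). None of these groups overlapped. Rad51c, another recombination gene, rose by 1.13 on the log2 scale. The tumour suppressor gene Brca2 (0.26 ± 0.35) and its partner Palb2 (0.41 ± 0.29) were not called, nor were Rad51b, Rad51d, Xrcc2 and Rad52.

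Of the resection genes, Exo1, an exonuclease of long-range trimming, had 39.4, 28.8 and 14.6 CPM in TG CD4SP cells, against 5.43, 4.86 and 9.60 CPM in WT CD4SP cells (log2 fold change 2.06 ± 0.43, edgeR adjusted p = 0.0192). Rbbp8, which starts trimming, and the helicase gene Blm rose as well, by 1.11 and 1.14 on the log2 scale. The 3 genes of the MRN complex, which holds and first nicks the ends, were not called, with 0.09 ± 0.16 for Mre11a, 0.31 ± 0.25 for Rad50 and 0.46 ± 0.32 for Nbn. Elsewhere, the checkpoint kinase gene Chek1 (1.79 ± 0.39), Parp1 (0.90 ± 0.23), Msh6 (0.99 ± 0.27) and Rnf8 (0.55 ± 0.16) rose, whereas Chek2 (0.79 ± 0.28), of the other effector kinase, and Rnf168 (0.62 ± 0.27), a ubiquitin ligase that acts after RNF8, were not called. The 16 genes with no call in this comparison had log2 fold changes between -0.21 (Rad52) and 1.70 (Rad51b) and adjusted p between 0.0522 (Polq) and 0.997 (Mdc1).

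The 3 genes that fell are named after their values were seen. Atm, the kinase of double-strand breaks, had 66.4, 44.6 and 67.2 CPM in TG CD4SP cells, against 164, 157 and 91.8 CPM in WT CD4SP cells (log2 fold change -1.20 ± 0.28, edgeR adjusted p = 0.0243). Atr, the kinase of stalled forks, had 20.4, 17.3 and 22.0 CPM in TG, against 53.5, 51.2 and 24.4 CPM in WT (-1.10 ± 0.31, edgeR adjusted p = 0.0410). Trp53bp1, whose product shields ends from trimming, had 67.7, 58.5 and 106 CPM in TG, against 159, 158 and 177 CPM in WT (-1.08 ± 0.25, edgeR adjusted p = 0.0253). The groups did not overlap, but WT replicate 3 was close to the TG libraries in Atm and Atr.

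**Figure D3:**
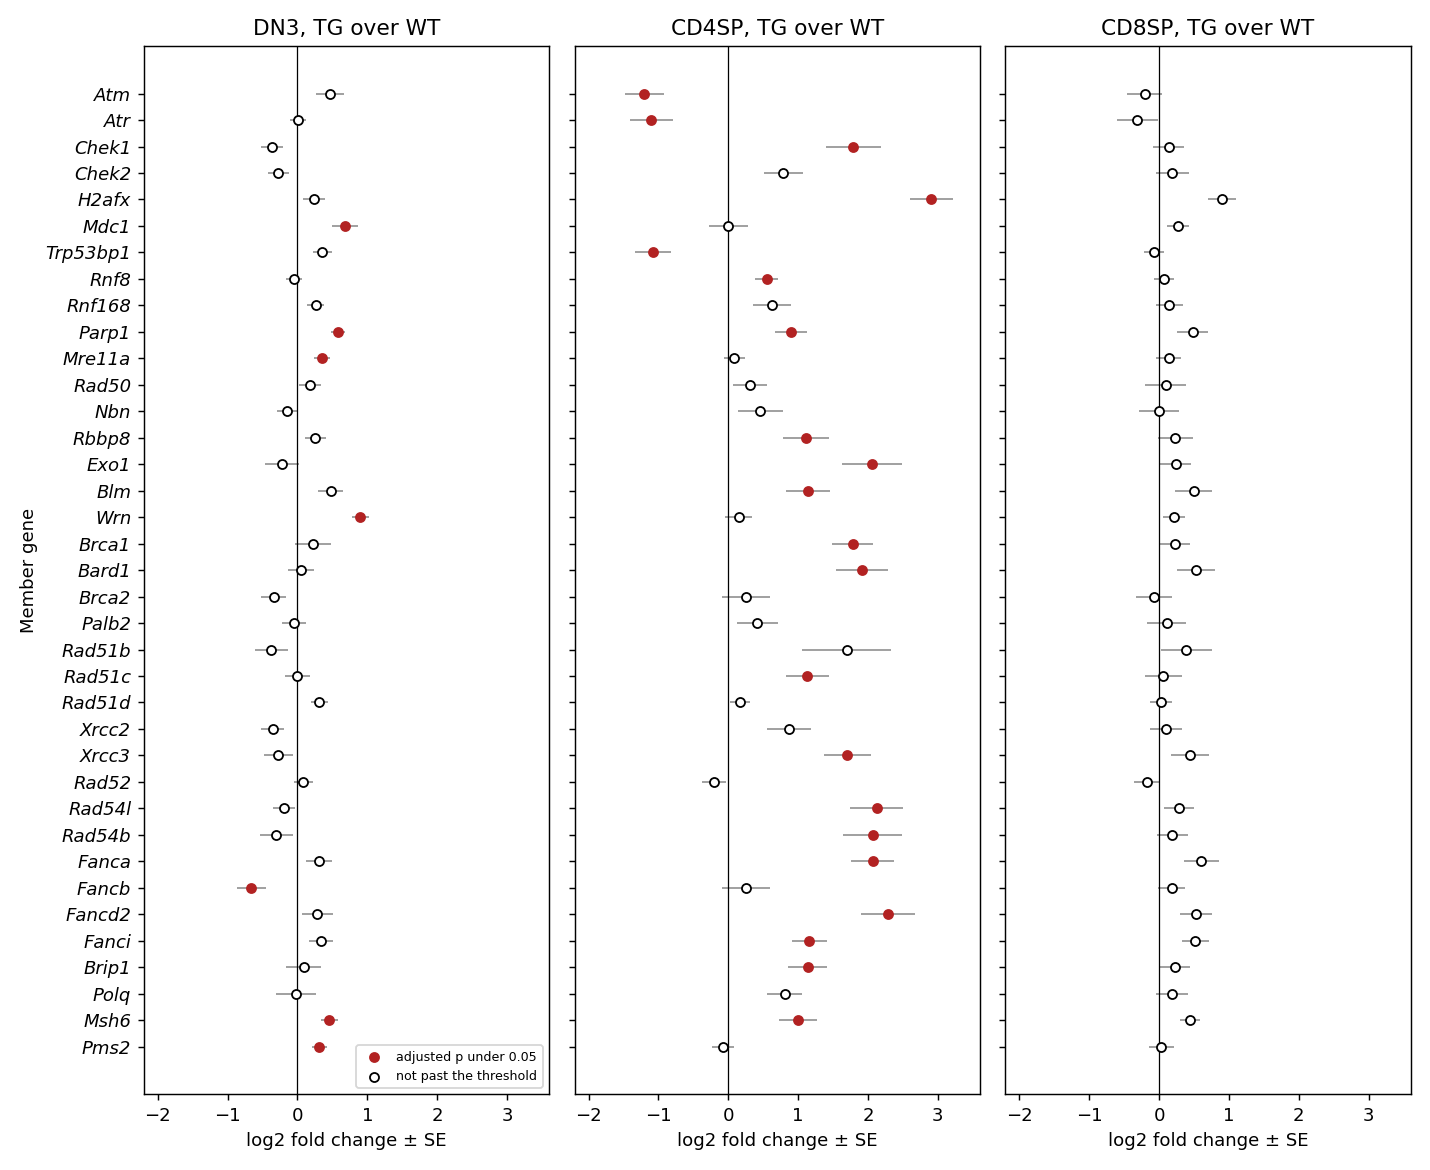
Log2 fold change of TG over WT with its SE for each of the 37 genes (rows, by role) in DN3, CD4SP and CD8SP cells (panels, n = 3 libraries per genotype), filled where edgeR's adjusted p was under 0.05. In CD4SP cells 18 genes are filled to the right of 0 and 3 to the left, in DN3 cells 6 and 1, and in CD8SP cells none.

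Transcript length, as implied by the deposited counts and FPKM, moved with genotype in these libraries. The median deviation of the longest 20% of genes minus that of the shortest 20%, each against the mean of the 6 CD4SP libraries, was between -0.98 and 0.01 on the log2 scale in TG CD4SP libraries, against 0.34 to 0.37 in WT CD4SP libraries. Atm stood at the length percentile 99.4, Trp53bp1 at 95.3 and Atr at 86.7, whereas H2afx stood at 12.8. With an offset for gene length in the same test, an alternative chosen after seeing the data, 18 repair genes rose and 0 fell. Atm was then at -0.44 (adjusted p = 0.355), Atr at -0.81 (adjusted p = 0.110) and Trp53bp1 at -0.69 (adjusted p = 0.0808), still lower in TG but with no call. Rnf8, a ubiquitin ligase at breaks, also lost its call (0.45, adjusted p = 0.0698), Polq gained one, and the other 17 increases kept theirs. The shares of all genes called in CD4SP cells that are given above belong to the fit without the offset.

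**Figure D4:**
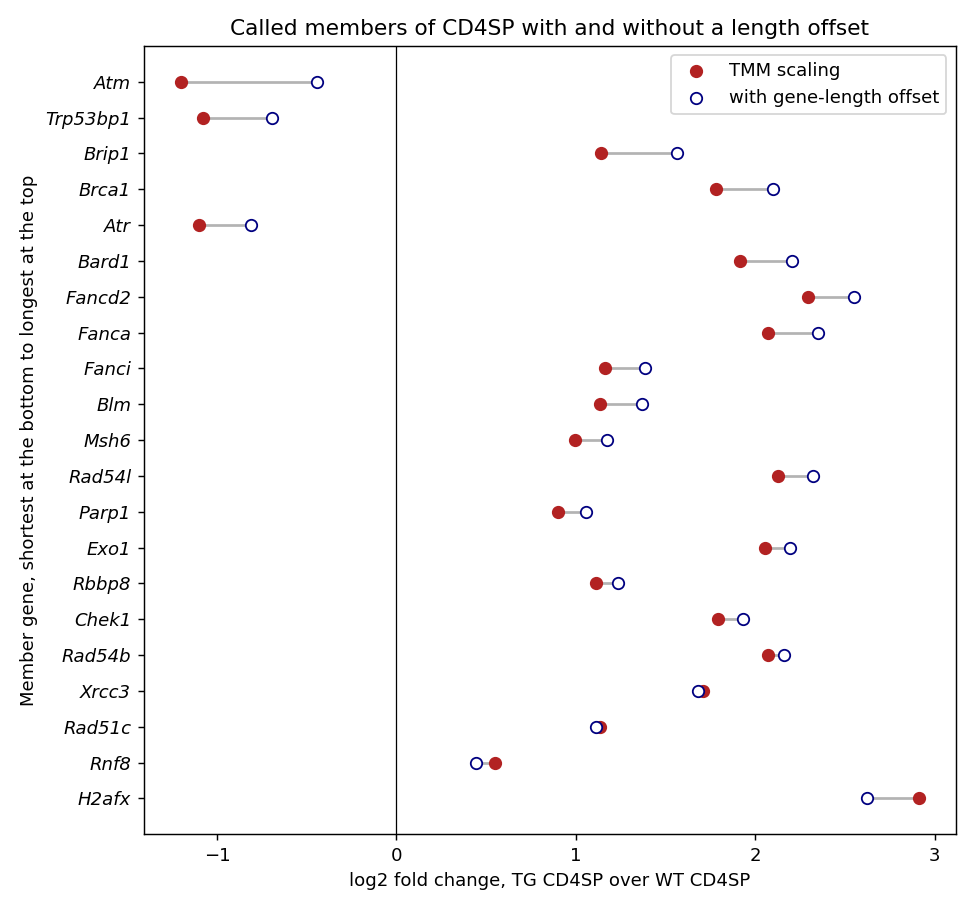
Log2 fold change of TG over WT in CD4SP cells for the 21 called repair genes, ordered from the shortest transcript at the bottom to the longest at the top, with TMM scaling (filled) and with the gene-length offset (open). Atm at the top has its open point at -0.44 and its filled point at -1.20, and H2afx at the bottom has them at 2.62 and 2.91.

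The count of 21 rested on few libraries. With the library labelled TG CD4SP replicate 3 as the only TG library, an alternative chosen after seeing the data in which that lone library is assumed to vary like the others, 11 genes were called: Chek1, H2afx, Parp1, Brca1, Bard1, Xrcc3, Rad54l, Rad54b, Fanca and Fancd2 rose and Trp53bp1 fell. H2afx was then at 2.23 (adjusted p = 0.00447) and Brca1 at 1.06 (adjusted p = 0.0235). Without TG replicate 1 there were 12 calls, and without WT replicate 1, 2 or 3 there were 0, 1 (H2afx) and 9 calls. WT replicates 1 and 2 were the close pair of this group. The 0 calls of edgeR without WT replicate 1 stood beside 21 genes with an unadjusted p under 0.05. With the replicate number as a block 7 genes were called (H2afx, Brca1, Xrcc3, Rad54l, Fanca, Fancd2 and Trp53bp1). With a term for the column names that end in N, 13 were called. These counts of repair genes stand without the share of all genes called, or at an unadjusted p under 0.05, in the same fits. In the annotation, 10 of the 37 genes overlap another protein-coding gene, among them Fanca with Zfp276, Fanci with Polg, Rad54l with Lrrc41, Xrcc3 with Klc1, and Trp53bp1 with Map1a and Tubgcp4. Since the strand setting is not stated, reads from shared stretches may be split between such partners.

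The pattern of each gene in the other cell types was set beside its CD4SP difference, with no test. Over the 12 groups without CD4SP cells, Pearson's r with the cell division genes was 0.8 or more for 23 repair genes. Of these, 17 rose and 0 fell in TG CD4SP cells (median log2 fold change 1.14). Of the 10 genes with r between 0 and 0.8, 1 rose (median 0.28). Of the 4 genes with r below 0, which were Atm, Atr, Trp53bp1 and Rad51d, 3 fell and 0 rose (median -1.09). Spearman's rank correlation was lower than r in each of the 23 genes, between 0.57 (Rnf8) and 0.97 (Bard1). Genes were grouped by r alone, and the share of all genes with such r that rose was not computed.

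Other repair lists moved unevenly in CD4SP cells. Of 9 genes of non-homologous end joining, the pathway that seals the breaks of receptor gene rearrangement, 2 rose and 1 fell: Xrcc6, which encodes the end-binding Ku70 (log2 fold change 3.15 ± 0.36), Lig4, the ligase of this pathway (1.79 ± 0.31), and Prkdc, its DNA-dependent kinase (-0.80 ± 0.21). Of 29 other recombination and crosslink repair genes, 10 rose and 1 fell, led by Dna2 (2.20 ± 0.32), Clspn (2.22 ± 0.35) and Rad51ap1 (2.29 ± 0.39). Of 15 targets of p53 that were tested, 2 rose: Phlda3 (3.39 ± 0.59) and the cell-cycle inhibitor gene Cdkn1a (3.52 ± 0.83).

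In DN3 cells, 6 repair genes rose in TG and 1 fell, and none of them was among the genes of the BRCA complexes, of strand exchange or of the checkpoint kinases. In this comparison 23.4% of 12037 genes were called higher and 22.2% lower, and 45.7% in either direction, so the share of repair genes called was below that of all genes. The median log2 fold change of the 37 genes was 0.09, against -0.03 over all genes. All TG libraries lay above all WT libraries in 7 of the 37 genes and below in 3, where 27.1% of all genes lay above and 30.7% below.

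Wrn, the RecQ helicase gene mutated in Werner syndrome, had 119, 118 and 111 CPM in TG DN3 cells, against 54.9, 74.3 and 59.6 CPM in WT DN3 cells (log2 fold change 0.90 ± 0.12, edgeR's quasi-likelihood test, Benjamini-Hochberg adjusted p = 0.000628). Parp1, whose product marks breaks with poly(ADP-ribose), had 489, 495 and 473 CPM in TG, against 312, 345 and 330.2 CPM in WT (0.58 ± 0.10, edgeR adjusted p = 0.00153). Both were called in each of the 6 fits that left out 1 library. Mdc1, the adaptor that binds phosphorylated H2AX, had 162, 152 and 134 CPM in TG, against 73.6, 124 and 84.7 CPM in WT (0.68 ± 0.18, edgeR adjusted p = 0.0156). Fancb, the one gene that fell, had 5.21, 8.02 and 5.28 CPM in TG, against 9.999, 10.3 and 9.44 CPM in WT (-0.66 ± 0.21, edgeR adjusted p = 0.0297). The TG libraries of all 4 genes lay clear of the WT libraries. The mismatch repair genes Msh6 (0.46 ± 0.13) and Pms2 (0.31 ± 0.11) and the nuclease gene Mre11a (0.35 ± 0.11) rose by less, with edgeR adjusted p of 0.0166, 0.0435 and 0.0305.

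Cell type markers also moved in DN3 cells. Of 6 DN3 markers 3 rose and 3 fell, led by Ptcra (log2 fold change -3.11 ± 0.35), Hes1 (-0.77 ± 0.15) and Dtx1 (0.65 ± 0.17), and of 8 DP markers 2 rose and 2 fell, led by Rag2 (-2.95 ± 0.30), Cd8a (2.53 ± 0.40) and Cd8b1 (1.19 ± 0.28). Of 7 markers of mature T cells 3 rose and 1 fell, among them H2-K1 (-1.91 ± 0.21) and Klf2 (3.28 ± 0.41). The summed B-cell markers were at 8.6 to 13.3 CPM in TG DN3 libraries, against 24.9 to 34.4 CPM in WT, and the myeloid ones at 2.5 to 3.8 CPM, against 8.8 to 11.7 CPM. Their part in the repair gene differences was not tested.

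The DN3 calls moved with the libraries used. Without TG replicate 1, WT replicate 1 or WT replicate 3 there were 3, 3 and 2 calls, and without WT replicate 2 there were 11. Here the difference of long and short genes was between 0.18 and 0.46 in TG DN3 libraries, against -0.61 to 0.10 in WT DN3 libraries. Wrn stands at the length percentile 91.0 and Mdc1 at 94.2. With the length offset 6 genes rose and 5 fell, with Wrn at 0.55, Parp1 at 0.45 and Mdc1 at 0.31, all still called. Chek1, Atr, Brca2 and Xrcc2 joined Fancb among those that fell. Shares of all genes called in these alternative fits are not given.

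The 26 division genes had a median log2 fold change of -0.12 in DN3 cells, and of 31 replication fork genes 1 rose and 9 fell, led by Tyms (log2 fold change -0.87 ± 0.16), Gins2 (-0.77 ± 0.15) and Rfc3 (-0.55 ± 0.12). Of the 9 end-joining genes, Prkdc rose (0.57 ± 0.18), and Dclre1c, the Artemis nuclease that opens hairpin ends (-0.82 ± 0.12), and Xrcc4, the partner of LIG4 (-0.57 ± 0.16), fell. Of the other recombination genes 6 rose and 6 fell of 29. The p53 targets moved both ways, 4 up and 3 down of 15, with Zmat3 at 1.96 ± 0.23, Trp53inp1 at 0.70 ± 0.11 and Cdkn1a at -5.08 ± 0.49.

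H2afx was the repair gene with the highest fold change in total DN, DP, CD4SP and CD8SP cells. In TG DN cells it had 434, 267 and 470.3 CPM, against 197, 188 and 165 CPM in WT DN cells (log2 fold change 1.04 ± 0.22, edgeR adjusted p = 0.0243), in TG DP cells 501, 552 and 419 CPM, against 318, 271 and 252 CPM in WT DP cells (0.81 ± 0.17, edgeR adjusted p = 0.213), and in TG CD8SP cells 435, 555 and 355 CPM, against 237, 210.1 and 274 CPM in WT CD8SP cells (0.90 ± 0.20, edgeR adjusted p = 0.0533). It was called in DN and CD4SP cells and missed the threshold in DP and CD8SP cells, though all libraries labelled TG lay above all WT libraries in these 4 cell types. The DP library at 419 CPM is the one labelled TG DP replicate 3, whose Lmo2 was at the level of WT libraries. In DN3 cells its 223, 275 and 193 CPM in TG overlapped the 223, 160 and 211 CPM in WT (0.24 ± 0.16). In DN1 cells it had 85.6, 94.1 and 100.1 CPM in TG and 81.3 CPM in the WT library. H2afx stands at the length percentile 12.8. The difference of long and short genes was -0.31 to -0.05 in TG and -0.09 to 0.54 in WT DN libraries. In DP libraries it was -0.42 to 0.03 in TG and 0.13 to 0.28 in WT. It had nearly the same range in CD8SP libraries, -0.28 to 0.21 in TG and -0.27 to 0.19 in WT. The part of length in the H2afx values was not tested beyond the length offset.

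**Figure D5:**
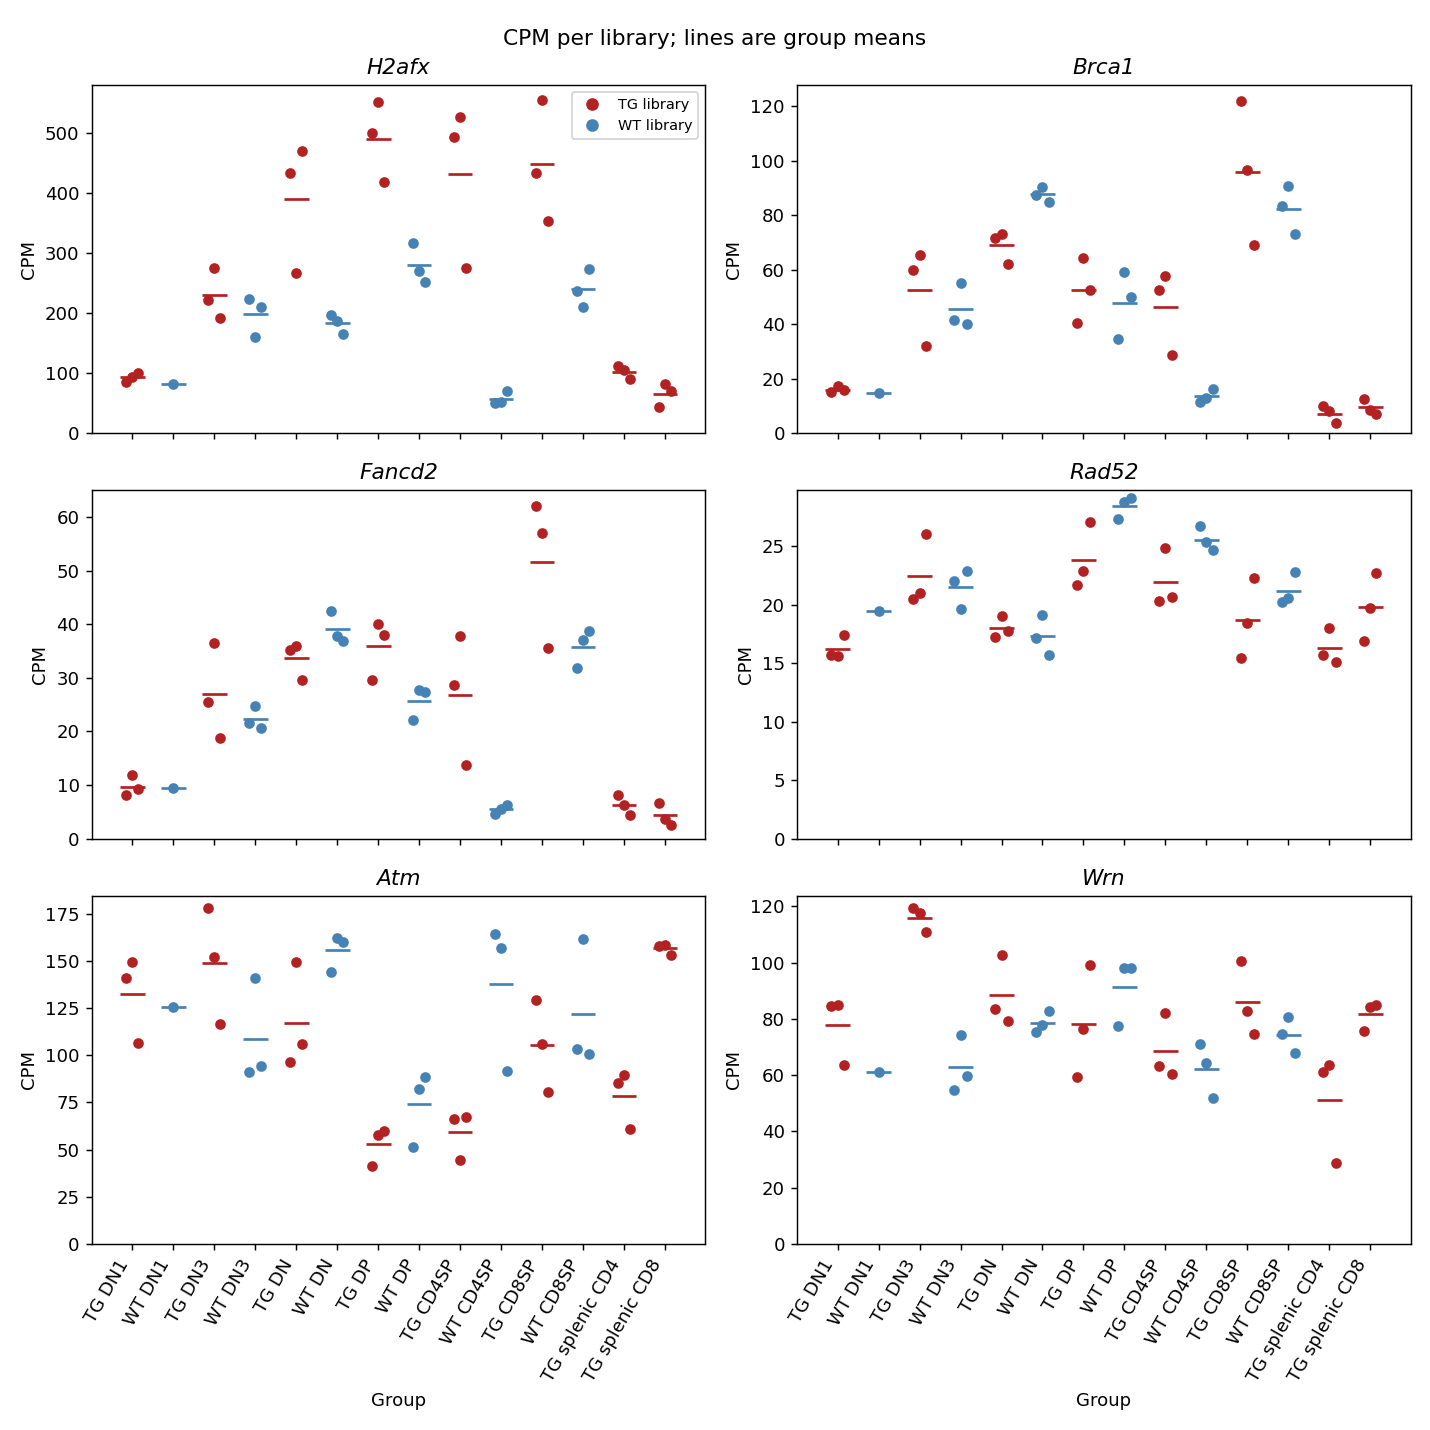
CPM of H2afx, Brca1, Fancd2, Rad52, Atm and Wrn in each of the 40 libraries (points, red for TG and blue for WT) by group, with lines at group means and axes from 0. H2afx lies higher in TG than in WT libraries in DN, DP, CD4SP and CD8SP cells, Wrn does so in DN3 cells, and Rad52 stays between 15.1 and 29.1 CPM throughout.

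In total DN cells, H2afx rose and Polq fell, while 7.47% of 12509 genes were called higher and 4.89% lower. Polq, the polymerase of microhomology-mediated end joining, had 27.7, 30.8 and 24.1 CPM in TG DN cells, against 50.8, 55.4 and 43.1 CPM in WT DN cells (log2 fold change -0.90 ± 0.16, edgeR adjusted p = 0.0160). All TG libraries lay above all WT libraries in 2 of the 37 genes and below in 6, where the shares of all genes were 22.1% and 17.1%. The median log2 fold change of the 37 genes was -0.11, against -0.01 over all genes. Both calls were lost without TG replicate 3, WT replicate 1 or WT replicate 2, where 0 genes were called and 3, 4 and 3 had an unadjusted p under 0.05 by edgeR, and 5 were called without TG replicate 2. Of 8 DP markers 3 fell, among them Rag2 (-2.88 ± 0.41) and Cd8b1 (-2.80 ± 0.65), and their part was not tested. Both repair gene calls were also lost with a term for the column names that end in N (H2afx 0.50, adjusted p = 0.325, and Polq -0.74, adjusted p = 0.219). The difference of long and short genes was -0.31 to -0.05 in TG DN libraries, against -0.09 to 0.54 in WT DN libraries. Polq stands at the length percentile 96.3 and H2afx at 12.8. With the length offset 1 of the 2 calls was kept, and the part of length was not tested otherwise. Shares of all genes in these alternative fits are not given.

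In DP cells, 0 repair genes were called by edgeR, with 4 at an unadjusted p under 0.05 and 1, H2afx, called by DESeq2, and edgeR called 0% of all 11649 genes. The library labelled TG DP replicate 3 had nearly no Lmo2, and without it edgeR called H2afx alone. No share of all genes is given for unadjusted p, for DESeq2 or for the fit without this library. All TG libraries lay above all WT libraries in 3 of the 37 genes and below in 1, where the shares of all genes were 12.1% and 10.4%.

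In CD8SP cells, 0 repair genes were called by edgeR, with 4 at an unadjusted p under 0.05 and 2, H2afx and Msh6, called by DESeq2. Of 11697 genes edgeR called 2.09% higher and 2.36% lower, or 4.45% in either direction. Without the library labelled TG CD8SP replicate 3, with its 6099 CPM of Rag1, edgeR called 5 genes, H2afx, Blm, Bard1, Fancd2 and Fanci, all higher in TG. Without the library labelled WT CD8SP replicate 3 it called 0, and 2 had an unadjusted p under 0.05. Counts by DESeq2, by unadjusted p and in fits that left out a library stand here without the share of all genes on the same measure. The median log2 fold change was 0.19, against 0.00 over all genes, and 4 of the 37 genes lay above without overlap and 0 below, where the shares of all genes were 12% and 13.9%. Of the division genes, 2 of 26 rose, Bub1b (0.71 ± 0.15) and Plk1 (0.84 ± 0.18), and Xrcc6 rose by 1.12 on the log2 scale. Of 7 markers of mature T cells 5 fell, led by Ccr7 (-2.37 ± 0.32), Il7r (-1.73 ± 0.27) and Cd69 (-1.61 ± 0.25), and of 6 DN3 markers 2 rose, Notch1 (1.31 ± 0.16) and Notch3 (1.84 ± 0.33), and their part in these values was not tested.

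In DN1 cells, where a single WT library stood for its group whose spread was taken from the other groups, edgeR called 0 repair genes, with 0 at an unadjusted p under 0.05 and 0 by DESeq2, and called 0% of all 14845 genes. Log2 fold changes of the 37 genes were between -0.75 (Brca2, ± 0.59) and 0.41 (Brip1, ± 0.45). The TG libraries lay above the WT library in 12 genes and below it in 4, where the shares of all genes were 23.9% and 21.8%.

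Whether the genotype difference itself differed between CD4SP and DN3 cells was tested with an interaction term over 12 libraries. It was higher in CD4SP than in DN3 cells for 15 repair genes and lower for 4, where 15.8% of 12750 genes were called higher and 15.1% lower. H2afx had the smallest adjusted p, with an interaction of 2.63 ± 0.36 on the log2 scale (edgeR adjusted p = 0.000992), followed by Trp53bp1 (-1.49 ± 0.28, adjusted p = 0.00394), Rad54l (2.27 ± 0.44, adjusted p = 0.00411), Xrcc3 (1.93 ± 0.40, adjusted p = 0.00556) and Atm (-1.73 ± 0.36, adjusted p = 0.00616). The number of calls was 11, 11 and 12 without WT CD4SP replicate 1, WT CD4SP replicate 2 and WT DN3 replicate 3, and 10 with the library labelled TG CD4SP replicate 3 as the only TG CD4SP library. With the gene-length offset all 4 lower calls were lost, with Trp53bp1 at -0.66 (adjusted p = 0.0945) and Atm at -0.49 (adjusted p = 0.340), and 12 of the 15 higher calls were kept. The same test between CD4SP and CD8SP cells gave 0 calls among the 37 genes by edgeR, with 15 at an unadjusted p under 0.05 and 9 by DESeq2, where edgeR called 0.024% of 12507 genes higher and 0.008% lower, 0.032% in all. H2afx was at 1.99 ± 0.37 there (edgeR adjusted p = 0.0606). Without the library labelled TG CD4SP replicate 3 edgeR called 9 genes, and without TG CD4SP replicate 2 or WT CD4SP replicate 3 it called 1. The shares of all genes given here are of adjusted edgeR calls in the main fits. None is given for unadjusted p, for DESeq2 or for the alternative fits.

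Within TG mice, many repair genes were lower in the spleen than in the thymus, and edgeR called none higher. In splenic CD8 cells 25 of the 37 genes were lower than in TG CD8SP cells, and in splenic CD4 cells 19 were lower than in TG CD4SP cells. Of all genes, 17.2% were called higher and 20.1% lower in the CD8 comparison, and 12.5% higher and 12% lower in the CD4 comparison. The median log2 fold change of the 37 genes was -1.61 for CD8, against -0.03 over all genes, and -1.34 for CD4, against -0.04. Without overlap, 27 genes lay below and 1 above for CD8 (28.5% and 27.6% of all genes), and 28 below and 1 above for CD4 (22.9% and 25.9% of all genes). The 18 genes that fell in both comparisons were Bard1, Blm, Brca1, Brca2, Brip1, Chek1, Chek2, Exo1, Fancd2, Fanci, H2afx, Msh6, Parp1, Polq, Rad51c, Rad54b, Rad54l and Xrcc3. The share of all genes that fell in both was not computed. With no WT spleen, a change of organ and an effect of the genotype in the spleen cannot be told apart.

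Chek1 had 5.22, 2.79 and 3.38 CPM in TG splenic CD8 cells, against 79.9, 92.9 and 55.3 CPM in TG CD8SP cells (log2 fold change -4.36 ± 0.35, edgeR's quasi-likelihood test, Benjamini-Hochberg adjusted p = 0.000683). Exo1 had 4.99, 4.22 and 2.31 CPM in the spleen, against 70.3, 75.8 and 44.7 CPM in the thymus (-4.10 ± 0.39, edgeR adjusted p = 0.00100). Brca1 had 12.4, 8.69 and 7.23 CPM in the spleen, against 122, 96.6 and 68.9 CPM in the thymus (-3.39 ± 0.33, edgeR adjusted p = 0.00104). In all 3 genes every splenic library lay below every thymic one. Msh6, the mismatch sensor gene, was at 63.1, 73.4 and 62.8 CPM in the spleen, against 338, 339 and 388 CPM in the thymus (-2.47 ± 0.17, edgeR adjusted p = 0.000537). Brip1 (-3.27 ± 0.29), Fanci (-3.08 ± 0.27), Bard1 (-3.55 ± 0.39), Blm (-2.90 ± 0.32), H2afx (-2.83 ± 0.31) and Xrcc3 (-3.01 ± 0.35) completed the 10 with the smallest adjusted p.

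Of the 4 checkpoint kinase genes Chek2 fell with Chek1, and of the 6 genes of break-site chromatin Rnf8, Rnf168 and Parp1 fell with H2afx, while the others were not called. Atm had 158, 159 and 153 CPM in TG splenic CD8 cells, against 129, 106 and 80.6 CPM in TG CD8SP cells (log2 fold change 0.52 ± 0.21, edgeR adjusted p = 0.0932), all above but not called. Atr (0.46 ± 0.35), Trp53bp1 (0.17 ± 0.16), Mdc1 (-0.07 ± 0.17), Rad51d (0.13 ± 0.17) and Rad52 (0.03 ± 0.23) were not called either. Fanca, with 34.0 CPM in the library labelled TG splenic CD8 replicate 1 and 6.58 and 6.20 CPM in the others, was not called (-1.70 ± 0.71). That library also held 3347 CPM of the B-cell genes and 2792 CPM of 7 myeloid genes, against 464 to 703 CPM and 88.7 to 127 CPM in the other splenic CD8 libraries, and without it 26 repair genes were called.

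In splenic CD4 cells, Msh6 had 80.0, 70.5 and 70.3 CPM, against 275, 392 and 230.5 CPM in TG CD4SP cells (log2 fold change -2.03 ± 0.24, edgeR adjusted p = 0.00746). H2afx had 112, 105 and 91.0 CPM in the spleen, against 493, 528 and 276 CPM in the thymus (-2.09 ± 0.28, edgeR adjusted p = 0.00923). Chek1 had 2.81, 4.63 and 2.87 CPM in the spleen, against 57.1, 30.3 and 18.8 CPM in the thymus (-3.38 ± 0.50, edgeR adjusted p = 0.0105). Every splenic library of these genes lay below every thymic one. Since the TG CD4SP libraries did not match their sort, the count depended on them: with the library labelled TG CD4SP replicate 3 as the only thymic one, 3 genes were called, Chek1, H2afx and Msh6. Without TG CD4SP replicate 1 there were 10 calls, and without splenic CD4 replicates 1, 2 and 3 there were 4, 6 and 12. Shares of all genes called in those fits are not given.

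Division and fork genes fell with the repair genes in the spleen, and markers of other cells rose. Of 5 B-cell markers 5 rose in each comparison, and of 7 myeloid markers 6 rose for CD8 and 5 for CD4, and their part in the lower repair gene levels was not tested. All 26 division genes and all 31 fork genes fell in the CD8 comparison (median log2 fold changes -4.21 and -2.63), and 23 of 26 and 26 of 31 fell in the CD4 comparison. Of the 9 end-joining genes 2 rose and 2 fell in the CD8 comparison, with Xrcc6 at -3.87, Lig4 at -3.62 and Polm, a gap-filling polymerase gene, at 1.84, and 0 rose and 2 fell in the CD4 comparison. Of the 29 other recombination genes 12 fell for CD8 and 11 for CD4, and none rose. Between splenic CD8 and splenic CD4 cells, edgeR called 0 of the 37 genes, with 4 at an unadjusted p under 0.05 and 1, Atm, by DESeq2, where 0.105% of 12429 genes were called higher and 0.386% lower. Atm, at 158, 159 and 153 CPM in splenic CD8 cells and 85.2, 89.5 and 60.9 CPM in splenic CD4 cells, did not overlap between them (1.01 ± 0.18, edgeR adjusted p = 0.0725). The single call among fits that left out 1 library came without splenic CD8 replicate 1. No share of all genes is given for unadjusted p, for DESeq2 or for such fits.

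Within WT mice the repair genes also differed between stages. In DP over DN3 cells 7 rose and 14 fell (28.6% of 11953 genes called higher, 31.4% lower, 60% in all). In CD4SP over DP cells 2 rose and 18 fell (23.4% of 11923 higher, 20.5% lower, 43.9% in all). In CD8SP over DP cells 13 rose and 2 fell (20.8% of 11691 higher, 16.9% lower, 37.7% in all). The share of repair genes called in either direction was near that of all genes in DP over DN3 and in CD8SP over DP cells. The median log2 fold changes of the 37 genes were -0.22, -0.61 and 0.49, against -0.02, -0.01 and -0.03 over all genes. These comparisons share the WT DP libraries, so their values are set side by side and not counted against each other.

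Exo1 had 21.0, 23.1 and 21.0 CPM in WT DP cells, against 48.5, 50.3 and 43.0 CPM in WT DN3 cells (log2 fold change -1.13 ± 0.13, edgeR's quasi-likelihood test, Benjamini-Hochberg adjusted p = 0.000108), and Nbn, the sensor subunit of the MRN complex, had 15.1, 19.4 and 17.4 CPM in DP, against 36.0, 46.5 and 36.5 CPM in DN3 (-1.20 ± 0.16, edgeR adjusted p = 0.000199). Chek1 (-1.24 ± 0.18), Xrcc3 (-1.33 ± 0.22), Rad51b (-1.92 ± 0.32), Parp1 (-0.98 ± 0.21) and Rad54l (-0.63 ± 0.14) fell as well. Msh6 rose, with 541, 421 and 407 CPM in DP cells, against 213, 274 and 233 CPM in DN3 cells (0.93 ± 0.19, edgeR adjusted p = 0.00222), and Fanci rose by 0.63. The division genes mostly rose in this step (15 up and 2 down of 26) while fork genes fell (1 up and 25 down of 31).

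In WT CD4SP cells, Fancd2 had 4.62, 5.56 and 6.21 CPM, against 22.0, 27.8 and 27.3 CPM in WT DP cells (log2 fold change -2.18 ± 0.16, edgeR adjusted p = 7.61e-05). H2afx had 50.7, 52.2 and 70.1 CPM in CD4SP, against 318, 271 and 252 CPM in DP (-2.23 ± 0.19, edgeR adjusted p = 0.000128). Bard1 (-1.80 ± 0.17), Fanci (-1.16 ± 0.14), Brca1 (-1.77 ± 0.22), Rad54b (-1.74 ± 0.24), Msh6 (-1.54 ± 0.22), Rbbp8 (-1.38 ± 0.20) and Rad54l (-1.77 ± 0.26) fell too, none of them with a CD4SP library inside the DP range. Trp53bp1 rose, with 159, 158 and 177 CPM in CD4SP, against 70.3, 71.5 and 68.0 CPM in DP (1.29 ± 0.11, edgeR adjusted p = 0.000137), and so did Atm (0.95 ± 0.27, edgeR adjusted p = 0.0263). All 26 division genes (median -2.53) and 29 of 31 fork genes fell in the same step. This comparison shares the WT CD4SP libraries with the genotype comparison in CD4SP cells.

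In WT CD8SP cells, Exo1 had 60.9, 55.6 and 45.7 CPM, against 21.0, 23.1 and 21.0 CPM in WT DP cells (log2 fold change 1.33 ± 0.15, edgeR adjusted p = 0.000970), and Chek1 had 76.2, 74.5 and 57.7 CPM, against 19.8, 34.5 and 28.0 CPM (1.36 ± 0.22, edgeR adjusted p = 0.00337). Rad54l (0.83 ± 0.15), Nbn (1.04 ± 0.19), Brca1 (0.80 ± 0.20), Rad51c (0.80 ± 0.21), Xrcc3 (0.91 ± 0.24), Rad51b (1.39 ± 0.37) and Parp1 (0.76 ± 0.23) rose, while Msh6 fell, with 279, 235 and 270.2 CPM in CD8SP, against 541, 421 and 407 CPM in DP (-0.79 ± 0.18, edgeR adjusted p = 0.0127), as did Rad52 (-0.41 ± 0.13). Fork genes rose with them (29 of 31) and division genes moved little (3 up and 2 down of 26). Same-numbered WT libraries had correlated deviations in this pair of groups, but not each was the best match of its own number. Replicate 1 of both groups was also the only one with a column name that ends in N. With the replicate number as a block 20 genes were called. Without WT DP replicate 3, WT CD8SP replicate 1 or WT CD8SP replicate 2 there were 6, 5 and 4 calls, and without the library labelled WT CD8SP replicate 3 there were 15. With the length offset 25 genes were called. Shares of all genes called under these alternatives are not given.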

How the data were processed

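RNA of 40 libraries in 14 groups was analysed. The authors deposited raw read counts and FPKM per gene and library in 1 table of 19521 genes. Builds mm9 and mm10 and the tools MACS2, Bowtie2, HISAT and DESeq2 appear in the submitters' processing notes without role or order, and the sources used here do not give versions, the counting tool, the annotation or the strand setting. Of the table's columns, 4 (2 of them counts) belong to samples not analysed here.

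The 37 genes and the gene lists were chosen with earlier results of these data known. Tests on these counts used edgeR 4.0.16 (R 4.3.3; quasi-likelihood with robust fit, TMM, filterByExpr with a minimum count of 10 and a minimum total of 15, prior count 0.125), within the groups compared except for DN1, which used a fit of all 40 libraries, with Benjamini-Hochberg adjustment over all genes tested at a threshold of 0.05. The SE is the log2 fold change over the root of its F statistic. CPM used TMM sizes over all 40 libraries. Alternatives were DESeq2 1.42.0, its size factors in edgeR, no filter, 1 fit of all libraries, a replicate block, a term for column names that end in N (12 of 40), each library left out, and 2 chosen after seeing the data, a gene-length offset (loess, span 0.5) and TG CD4SP as replicate 3 alone. Gene length was taken as count over FPKM and library total, as the median over libraries, and the difference of long and short genes used genes with a mean CPM of at least 5. The script was tested on simulated data. Tables were summarised with pandas 2.3.3 in Python 3.11.15.

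All 37 genes are named, with full statistics for at most 10 per comparison and 5 per interaction, those with the smallest adjusted p, and at most 3 genes of each other list. The series' design text speaks of samples paired within stages, but the labels do not say that a replicate number marks a shared litter or day. Same-numbered libraries had correlated deviations above 0.1 in every pair only in WT CD8SP over WT DP cells (r = 0.45, 0.45 and 0.10). With 3 libraries against 3, an exact permutation test cannot give a p below 0.1, so single values were not tested that way. LMO2 peak lists were not used, since no annotation of their build was at hand. Depth sets the counting error only.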

Additional observations from a re-analysis of the deposited data

Results flagged for a closer look

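The genotype difference in CD4SP cells differed from that in DN3 cells, by an interaction term over 12 libraries in edgeR with adjusted p under 0.05, for 19 of the 37 repair genes. It was higher in CD4SP cells for 15 and lower for 4, where 15.8% of 12750 genes were called higher and 15.1% lower. The share of repair genes called lower was thus below that of all genes. On the log2 scale the interaction was 2.63 for H2afx, 2.33 for Rad54b, 2.27 for Rad54l, 2.24 for Exo1, 2.12 for Chek1 and 2.03 for Rad51b. It was 1.97 for Fancd2, 1.93 for Xrcc3, 1.82 for Bard1, 1.72 for Fanca and 1.52 for Brca1. It was 1.18 for Xrcc2, 1.09 for Rad51c, 1.02 for Chek2 and 0.55 for Rnf8. The 4 genes with a lower difference in CD4SP cells were Wrn at -0.80, Atr at -1.16, Trp53bp1 at -1.49 and Atm at -1.73. With the gene-length offset 12 of these 19 calls were kept, all of them higher, and 7 were lost, those of Chek2, Rnf8 and Rad51b and of all 4 lower genes, while Brca2, Fanci, Brip1, Polq and Msh6 were called higher in addition. The TG CD4SP libraries also held markers of other sorts, and the part of that and of cell division in these values was not tested. Transcript length was looked at only through this offset, which was chosen after seeing the data.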

How the results depend on the processing

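Across these alternatives, 139 counts of called genes stayed within 1.5 times the reported count and 53 did not. The 139 include reported counts of 0 that stayed at 0. Of values of single called genes, 1656 kept their call, 447 lost it and 0 changed direction. Leaving out 1 library at a time gave 0 to 23 calls for TG over WT in CD4SP cells, 2 to 11 in DN3, 0 to 5 in DN, 0 to 1 in DP and 0 to 5 in CD8SP cells. It gave 4 to 20 calls for splenic CD4 over CD4SP cells, 0 to 1 for splenic CD8 over splenic CD4 cells, 4 to 16 for WT CD8SP over WT DP cells, 11 to 25 for the interaction of CD4SP and DN3 and 0 to 9 for that of CD4SP and CD8SP.

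The fit of all 40 libraries called 2 genes in DN3, 1 in DN, 1 in DP, 1 in CD8SP, 2 between the splenic groups and 7 in the interaction of CD4SP and CD8SP, for which DESeq2 called 11, 5, 1, 2, 1 and 9. DESeq2 size factors and no filter each called 1 gene in CD8SP cells. The term for column names that end in N gave 0 calls in DN (2 at an unadjusted p under 0.05 by edgeR), 13 in CD4SP and 1 between the splenic groups, and in DN3 it could not be estimated. The gene-length offset gave 11 calls in DN3, 1 in DN, 1 in CD8SP and 25 in WT CD8SP over WT DP cells. TG CD4SP as replicate 3 alone gave 11 calls for genotype, 3 for the spleen and 10 for the interaction with DN3. The replicate block gave 7 calls in CD4SP cells, where same-numbered libraries did not all deviate together. It gave 20 against 15 without it in WT CD8SP over WT DP cells. There they did, but not each was the best match of its own number. The block moved no other count by over 1.5 times. With DESeq2 size factors the summed CPM of the 37 genes was 1330 in WT DN1 cells and 1327 in TG splenic CD8 cells, against 1259 and 1268 with TMM. The counts of calls in this section, and those under alternative settings in the other sections, are of repair genes only. They stand without the share of all genes called under the same setting, so they do not show whether repair genes exceed that share. The causes of these shifts were not tested.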
